A study of Homo sapiens with 12 samples.

Results

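DLX3, OLR1 and HACD1 are 3 of the 20345 genes in an RNA-seq table of HGC-27, a human line from a gastric cancer, and all 3 belong to the 11225 genes with a mean of at least 1 FPKM that entered the tests. FPKM counts sequenced fragments relative to the length of the transcript and to the total mapped in that library, so levels of different genes can be set side by side per length. The 3 genes were chosen from their measured values, because every library with GLUP lay below every untreated library of the same genotype. Their differences with GLUP are therefore given as a description with no test. Tests are reserved for the comparison between genotypes, a contrast that the choice did not make. The choice did read the same libraries, and groups without overlap favour genes with a small spread, which enters these tests. They are thus not fully independent of the choice.

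The experiment held 12 libraries in 4 groups of 3. RNA came from WT cells of the line and from cells labelled TEAD4KO, each with and without GLUP, a cyclic peptide designed to bind the transcription factor TEAD4 and bring its molecules together. The design addressed what GLUP does to expression and whether this depends on TEAD4, which carries the output of the Hippo pathway to DNA. Replicates are numbered 1, 2 and 3 without GLUP, and 14, 15 and 16 with it. The number series thus goes with the treatment, and the labels do not say whether both sets were handled together. A difference with GLUP cannot be told apart from a difference between these sets of libraries. Untreated cells are labelled as having no treatment, and the methods of the study name the storage buffer of the peptide as control. The sample labels give no dose or time. They do not say whether the TEAD4KO line is a single clone or whether replicates were separate cultures. For RNA sequencing the methods of the study name at least 2 biological replicates, without tying them to these libraries. A p-value here therefore sets a difference against the spread between these libraries, which may be technical.

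DLX3 encodes a homeodomain transcription factor of the distal-less family, which acts in the differentiation of epidermis, hair, placenta, tooth and bone and is induced by bone morphogenetic protein (BMP) signals. OLR1 encodes LOX-1, a C-type lectin-like scavenger receptor on the cell surface that takes up oxidised low-density lipoprotein and is known from endothelial cells and macrophages. HACD1 encodes a 3-hydroxyacyl-CoA dehydratase of the endoplasmic reticulum, which carries out the dehydration step in each cycle of very long chain fatty acid elongation and is known for its role in skeletal muscle.

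The TEAD4 transcript was not lower in the libraries labelled TEAD4KO, at 26.02 to 30.1 FPKM, than in the WT libraries, at 22.9 to 25.8 FPKM. A disrupted reading frame can leave a transcript in place, so this neither checks nor contradicts the label at the protein level, and directions refer to the label. Of 6 epithelial markers 3 had a median of at least 1 FPKM, namely KRT8 at 3.78 to 9.13, CDH1 at 2.04 to 3.68 and KRT7 at 0.644 to 4.15 FPKM. The other 3 were near 0, with EPCAM at 0.028 to 0.169 FPKM, KRT18 at 0.056 to 0.290 FPKM and KRT19 listed at 0 in 9 of 12 libraries. None of 5 gastric mucous markers had a median of at least 1 FPKM, and TFF1, TFF2 and GKN1 were listed at 0 in all 12. Of 4 mesenchymal markers VIM was at 1238 to 1704 FPKM, ZEB1 at 15.9 to 23.3 and FN1 at 3.85 to 9.15 FPKM, whereas CDH2 was at 0.033 to 0.149 FPKM, and all 5 fibroblast markers had a median of at least 1 FPKM, with COL3A1 at 299.6 to 359 FPKM. The endothelial markers CDH5 and KDR and the macrophage marker CD163 were listed at 0 in all 12 libraries. The summed FPKM of a library ranged from 375361 to 423757, the sequencing depth is unknown, and fewer cells expressing a gene cannot be told apart from less RNA per cell.

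On GRCh37, DLX3 (ENSG00000064195) spans chr17:48067369-48072588 on the minus strand, OLR1 (ENSG00000173391) spans chr12:10310900-10324737 on the minus strand, and HACD1 (ENSG00000165996) spans chr10:17631031-17659373 on the minus strand. The reference transcripts have 3 exons and 2602 bases for DLX3, 6 exons and 2456 bases for OLR1, and 7 exons and 2234 bases for HACD1. The transcript of DLX3 is richer in G and C, at 57.4%, than those of OLR1 and HACD1, at 40.1% and 40.7%. None of the 3 shares a 50-base stretch with a transcript of another gene, so a read of that length would not be split with a paralogue. OLR1 overlaps TMEM52B on the opposite strand, at 0.677 to 2.24 FPKM, but their annotated exons share 0 bases.

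Averaged over the 12 libraries, HACD1 stood at 38.7 FPKM and ranked 1639 of 11225, DLX3 stood at 29.9 FPKM and ranked 2239, and OLR1 stood at 4.31 FPKM and ranked 8579. HACD1 and DLX3 were thus of similar level per length, and OLR1 was the low member.

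The promoter of HACD1 is shown because HACD1 is the member whose level differed between genotypes in the test given below. The RefSeq promoter table matched HACD1 and did not match DLX3 or OLR1. The 300 bases run from 250 before to 50 after the annotated start, at chr10:17617325-17617624 on GRCh38.p14, minus strand, with matches to GGGCGG (the letters of an SP1-type GC box, searched on both strands) in capitals.
HACD1: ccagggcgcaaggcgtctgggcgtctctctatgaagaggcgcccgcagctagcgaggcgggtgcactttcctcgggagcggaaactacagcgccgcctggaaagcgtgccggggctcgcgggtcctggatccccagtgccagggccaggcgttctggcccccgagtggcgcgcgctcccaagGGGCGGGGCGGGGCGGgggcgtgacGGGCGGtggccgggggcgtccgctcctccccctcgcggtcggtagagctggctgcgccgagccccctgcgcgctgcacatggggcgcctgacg
This window held 4 matches to GGGCGG, 3 of which run into each other, and 44.6% of the 27305 promoters of this length in the table hold at least 1. Its GC content was 75.3% against a median of 58.3%, and it held 38 CpG pairs against a median of 14, a number that 9.69% of promoters reach. The core letters TGACG of a cyclic AMP response element matched at 2 places, 1 of which overlaps a GC box by its last base, and 25.0% of promoters hold them. Neither GGAATG, the letters bound by TEAD factors, nor TGANTCA (AP-1), TAATTA (homeodomain) or TATAAA (the core promoter box) occurs in this window on either strand. These letters occur in 14.05%, 7.76%, 4.98% and 11.95% of promoters. The full cyclic AMP response element TGACGTCA was absent from this window as well, and 1.98% of promoters hold it.

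DLX3 was lower when GLUP was present, with a difference of means of -29.9% in WT libraries and -19.9% in libraries labelled TEAD4KO. In untreated WT libraries it was at 36.8, 33.6 and 34.2 FPKM, a mean of 34.9 ± 1.70 (SD, n = 3). In WT libraries with GLUP it was at 24.7, 25.1 and 23.6 FPKM, a mean of 24.5 ± 0.818 (SD, n = 3). The highest library with GLUP lay well under the lowest untreated library. Untreated libraries with the TEAD4KO label gave 34.9, 31.6 and 33.6 FPKM, a mean of 33.4 ± 1.64 (SD, n = 3). With GLUP the libraries labelled TEAD4KO gave 27.6, 25.5 and 27.2 FPKM, a mean of 26.7 ± 1.13 (SD, n = 3). These 2 groups did not overlap either. On the log2(FPKM + 1) scale the GLUP difference was -0.49 (SE 0.06) in WT and -0.31 (SE 0.06) in cells labelled TEAD4KO.

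OLR1, the scavenger receptor, had the largest relative difference of the 3, at -35.8% in WT and -33.4% in cells labelled TEAD4KO. Untreated WT libraries gave 4.76, 5.29 and 4.08 FPKM, a mean of 4.71 ± 0.604 (SD, n = 3). WT libraries with GLUP gave 3.40, 2.80 and 2.86 FPKM, a mean of 3.02 ± 0.332 (SD, n = 3). Replicates were more scattered than those of DLX3, and the lowest untreated library was still above the highest with GLUP. Untreated libraries labelled TEAD4KO gave 5.69, 5.74 and 5.71 FPKM, a mean of 5.71 ± 0.0238 (SD, n = 3). With GLUP they gave 3.48, 3.78 and 4.16 FPKM, a mean of 3.81 ± 0.338 (SD, n = 3). The 3 untreated libraries labelled TEAD4KO were nearly equal, with a coefficient of variation of 0.417% against 12.8% in untreated WT. The GLUP difference was -0.50 (SE 0.10) in WT and -0.48 (SE 0.10) in cells labelled TEAD4KO on the log2(FPKM + 1) scale. The added 1 compresses a gene of this low level, and with a pseudocount of 0.1 the differences were -0.62 and -0.58.

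HACD1, the elongation enzyme, had the smallest difference in WT, at -16.1%, and a difference of -20.8% in cells labelled TEAD4KO. Untreated WT libraries gave 37.5, 38.7 and 38.4 FPKM, a mean of 38.2 ± 0.647 (SD, n = 3). WT libraries with GLUP gave 32.2, 34.2 and 29.6 FPKM, a mean of 32.0 ± 2.27 (SD, n = 3). The untreated libraries were tight and those with GLUP were spread over a wider range below them. Untreated libraries labelled TEAD4KO gave 48.4, 46.5 and 46.6 FPKM, a mean of 47.2 ± 1.03 (SD, n = 3). With GLUP they gave 38.1, 38.6 and 35.3 FPKM, a mean of 37.4 ± 1.78 (SD, n = 3). The libraries labelled TEAD4KO with GLUP thus came down to about the level of untreated WT. The GLUP difference was -0.25 (SE 0.06) in WT and -0.33 (SE 0.06) in cells labelled TEAD4KO on the log2(FPKM + 1) scale. The GLUP difference in cells labelled TEAD4KO minus that in WT was -0.08 (SE 0.09) for HACD1. For DLX3 it was 0.18 (SE 0.09) and for OLR1 0.02 (SE 0.14). These values were not tested, since the genes were chosen from their differences with GLUP.

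**Figure D1:**
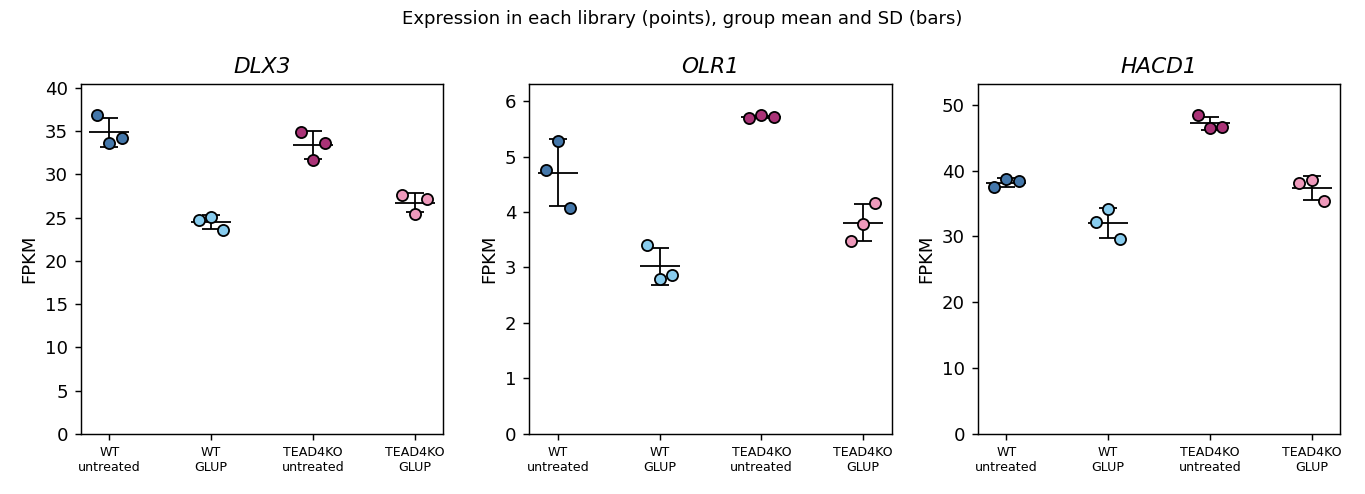
FPKM (vertical axes, from 0) of DLX3, OLR1 and HACD1 in each of the 12 libraries, with 3 points a group and bars for the group mean and SD. In each genotype the points with GLUP lie below the untreated points, and the points of HACD1 labelled TEAD4KO, at 46.5 to 48.4 FPKM untreated, lie above those of WT.

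The order of the 4 groups differed between the genes. DLX3 ran from untreated WT over untreated cells labelled TEAD4KO and the same with GLUP to WT with GLUP, and the 2 untreated groups overlapped. OLR1 ran from untreated cells labelled TEAD4KO over untreated WT and cells labelled TEAD4KO with GLUP to WT with GLUP, and the middle groups overlapped, since the lowest untreated WT library was at 4.08 FPKM and the highest library labelled TEAD4KO with GLUP at 4.16 FPKM. HACD1 had the same order as OLR1, and its middle groups overlapped as well. The summed level of 6 epithelial markers was 10.96 to 11.99 FPKM in untreated WT libraries and 9.15 to 10.3 FPKM in WT with GLUP. In cells labelled TEAD4KO it was 12.9 to 16.5 FPKM untreated and 9.88 to 10.9 FPKM with GLUP. This sum is carried by KRT8, CDH1 and KRT7, since EPCAM, KRT18 and KRT19 were near 0. None of KRT8, CDH1 and KRT7 by itself lay lower with GLUP without overlap in both genotypes, as 0.659% of tested genes did. No such share was computed for sums of genes. The summed level of 4 mesenchymal markers was 1323 to 1393 FPKM in untreated WT, 1268 to 1328 FPKM in WT with GLUP, 1430 to 1633 FPKM in untreated cells labelled TEAD4KO and 1376 to 1730 FPKM in the same with GLUP. VIM, at 1238 to 1704 FPKM over all libraries, makes up most of this sum. The summed level of 5 fibroblast markers was 661 to 692 FPKM in untreated WT and 694 to 752 FPKM in WT with GLUP, and it overlapped in cells labelled TEAD4KO, at 643 to 778 FPKM untreated and 606 to 722 FPKM with GLUP. Whether these levels have a part in those of the 3 genes was not tested. For DLX3 the differences with GLUP were larger in size than those between genotypes, whereas for HACD1 both were of similar size.

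The choice itself was shared by 74 of the 11225 tested genes, or 0.659%, in which every library with GLUP lay below every untreated library in both genotypes, and 112 genes, or 0.998%, had the reverse pattern. Each genotype taken by itself, 7.16% of genes were lower without overlap in WT and 3.98% in cells labelled TEAD4KO. Among the 74 genes, OLR1 had the largest mean difference over both genotypes, at -0.49 on the log2 scale, DLX3 ranked 6 at -0.40 and HACD1 ranked 12 at -0.29, against a median of -0.18. The gap between the lowest untreated and the highest GLUP library was 0.41 log2 units in WT and 0.19 in cells labelled TEAD4KO for DLX3, 0.21 and 0.38 for OLR1, and 0.13 and 0.26 for HACD1. Ranked by the smaller of their gaps, OLR1 stood at 4, DLX3 at 5 and HACD1 at 7 of 74. The last gene inside the rule was IL10RB, with a smaller gap of 0.00026, and the first outside it was EGLN2, at -0.00094. All 3 genes kept the pattern with median-ratio scaling, with quantile normalisation, and after a correction of the libraries for transcript length and GC content.

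**Figure D2:**
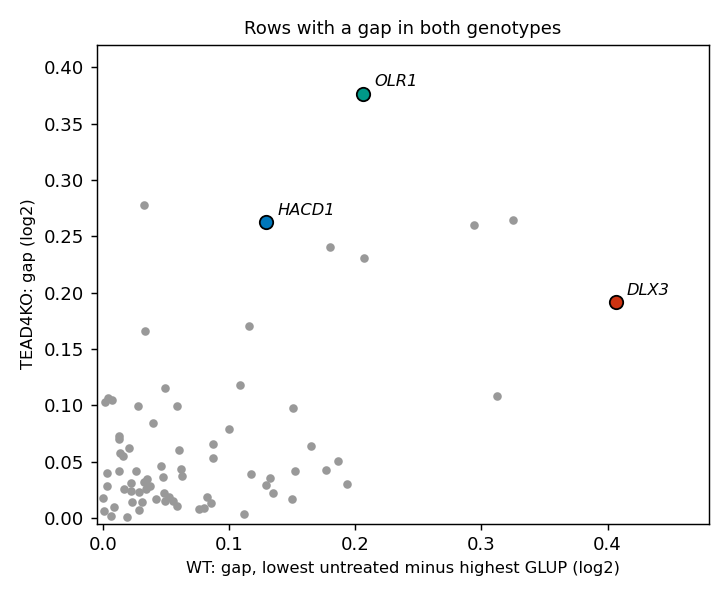
Gap in log2(FPKM + 1) units between the lowest untreated library and the highest GLUP library, in WT (horizontal axis) and in cells labelled TEAD4KO (vertical axis), for the 74 genes with a gap in both genotypes. DLX3 lies farthest to the right at 0.41, OLR1 is at the top at 0.38, and most other genes crowd near the origin.

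Between genotypes, HACD1 was higher in untreated libraries labelled TEAD4KO than in untreated WT, and neither DLX3 nor OLR1 passed the test. HACD1 was 23.6% higher, a log2 difference of 0.30 (SE 0.06, 95% interval 0.17 to 0.43), with an adjusted p of 0.0153 in limma (two-sided, Benjamini-Hochberg over 11225 genes, n = 3 a group). A higher level in libraries labelled TEAD4KO was called for 4.92% of all genes and a lower one for 0.499%. OLR1 was 21.4% higher, a log2 difference of 0.24 (SE 0.10, interval 0.03 to 0.45) with an limma adjusted p of 0.176, and its 3 untreated libraries labelled TEAD4KO were all above the 3 WT libraries. DLX3 was slightly lower, by a difference of means of -4.30%, with a log2 difference of -0.06 (SE 0.06, interval -0.20 to 0.07) and an limma adjusted p of 0.606.

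The call of HACD1 depended on the correction for transcript length and GC content and on single libraries. After that correction its log2 difference was 0.21 with an limma adjusted p of 0.0819, and without untreated WT replicate 1 or 3 the adjusted p was 0.0691 or 0.0734. Over all alternatives run the adjusted p ranged from 0.00927 to 0.111, and it stayed under 0.05 in 19 of 23. Fits that left out a library outside a comparison kept its difference and acted only through the estimate of spread. Such fits are included in this count and in those given below for other genes and comparisons.

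With GLUP present in both genotypes, the means of all 3 genes were above those of WT in libraries labelled TEAD4KO, and none passed the test. HACD1 was 16.7% higher, a log2 difference of 0.22 (SE 0.06, interval 0.08 to 0.35), with an limma adjusted p of 0.0558. With the replicate number as a block, the limma adjusted p of HACD1 was 0.0418, and after the length and GC correction its log2 difference was 0.14 with an adjusted p of 0.186. Over all alternatives it ranged from 0.0201 to 0.242 and was under 0.05 in 5 of 23. In this comparison 4.91% of all genes were called higher and 0.935% lower. OLR1 was 26.01% higher, a log2 difference of 0.26 (SE 0.10, interval 0.05 to 0.47) with an limma adjusted p of 0.137. DLX3 was 9.29% higher, a log2 difference of 0.12 (SE 0.06, interval -0.01 to 0.26) with an limma adjusted p of 0.246.

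OLR1 and HACD1 shared a position in which every library labelled TEAD4KO lay above every WT library, both untreated and with GLUP. This position was common, since 9.82% of the tested genes held it. DLX3 held it with GLUP, where 16.7% of genes did, and not in untreated libraries, where 18.3% did.

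**Figure D3:**
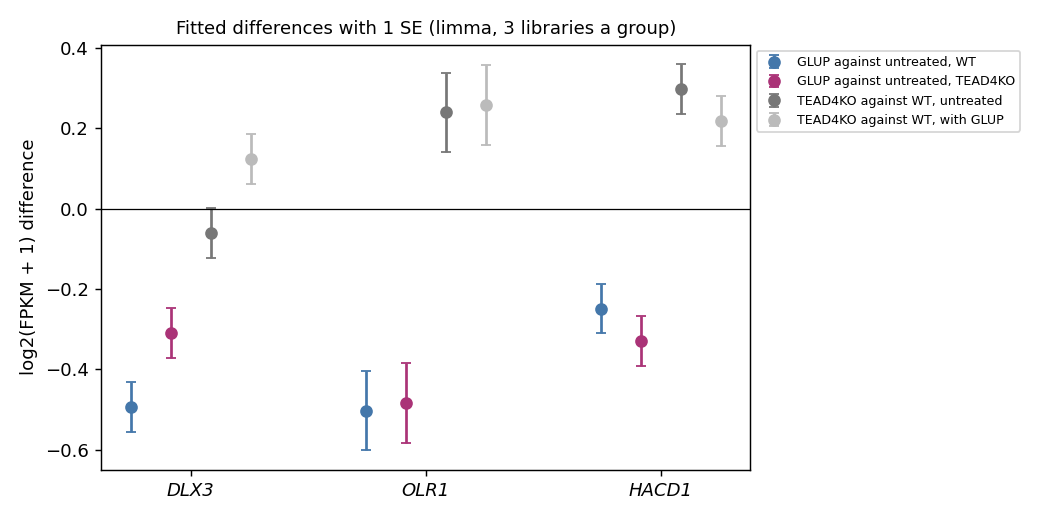
Fitted differences in log2(FPKM + 1), with bars of 1 SE, for the 3 genes, GLUP against untreated in each genotype and cells labelled TEAD4KO against WT untreated and with GLUP, from limma with 3 libraries a group. The GLUP differences, which chose the genes, lie between -0.50 and -0.25, and the genotype differences lie between -0.06 and 0.30.

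The DLX family other than DLX3 gave no call. DLX1, DLX2, DLX4, DLX5 and DLX6 were all expressed, with means of 11.7, 13.5, 9.80, 3.43 and 5.02 FPKM over the 12 libraries, below the 29.9 FPKM of DLX3. None of these 5 passed limma in any of the 4 comparisons, and 0 of 5 were lower with GLUP without overlap in WT or in cells labelled TEAD4KO, which is near the 7.16% and 3.98% of all genes. DLX4, the next protein-coding gene to DLX3 at 15046 bases, had GLUP differences of -0.14 in WT and -0.27 in cells labelled TEAD4KO on the log2 scale. Its limma adjusted p-values were 0.999 and 0.674. ITGA3, which encodes an integrin subunit and lies on the other side, had GLUP differences of 0.08 and -0.07.

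Of 22 genes of BMP signalling and its response, the pathway upstream of DLX genes, 19 were tested. None of the 19 passed limma for GLUP in either genotype. BMP4, a ligand, had GLUP differences of 0.22 and 0.31, with limma adjusted p-values of 0.852 and 0.176. Between genotypes 5 of the 19 rose in libraries labelled TEAD4KO in both comparisons and 0 fell, beside 4.92% and 4.91% of all genes called higher. They were BMP4, the antagonist NOG, the BMP-induced repressors ID1 and ID3, and the homeobox gene MSX1. The log2 difference of ID1 was 0.52 untreated and 0.52 with GLUP, with limma adjusted p-values of 0.00167 and 0.00127. MSX1 gave 0.51 and 0.55, BMP4 0.35 and 0.44, ID3 0.35 and 0.45, and NOG 0.40 and 0.32. After the length and GC correction only ID1 kept an adjusted p under 0.05 of these 5 in untreated libraries, at 0.0110, and with GLUP all but NOG did. With 1 library left out, ID1 and MSX1 passed in 12 of 12 fits in both comparisons, whereas NOG passed in 10 untreated and in 4 with GLUP, where its limma adjusted p was 0.0392, or 0.0544 with the replicate block. The median of the 19 genes was 0.08 untreated and 0.06 with GLUP, against 0.02 and -0.0039 over all genes.

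Of 24 genes of epidermal differentiation, 23 were in the table and 6 passed the level limit, so most of the keratinocyte programme in which DLX3 is known was under that limit here. None of the 6 passed limma for GLUP. TGM1, a transglutaminase that cross-links the cornified envelope, had GLUP differences of -0.32 in WT and -0.30 in cells labelled TEAD4KO, with limma adjusted p-values of 0.515 and 0.339. CEBPB, a leucine zipper factor, rose in libraries labelled TEAD4KO by 0.46 untreated (limma adjusted p = 0.0321) and by 0.65 with GLUP (limma adjusted p = 0.00519). The untreated call of CEBPB was lost with the length and GC correction (limma adjusted p = 0.302) and when single libraries were left out (8 of 12 fits passed), while the call with GLUP held in 12 of 12. KLF4, a zinc finger factor, was lower in libraries labelled TEAD4KO when GLUP was present, with a difference of -0.51 (limma adjusted p = 0.00515). Of 15 trophoblast and placental genes 2 were tested, TFAP2A at 19.9 FPKM and GATA2 at 13.1 FPKM, and of 12 bone and tooth genes 3 were tested, among them COL1A1 at 239 FPKM and RUNX2 at 6.90 FPKM. None of these 5 passed in any comparison.

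**Figure D4:**
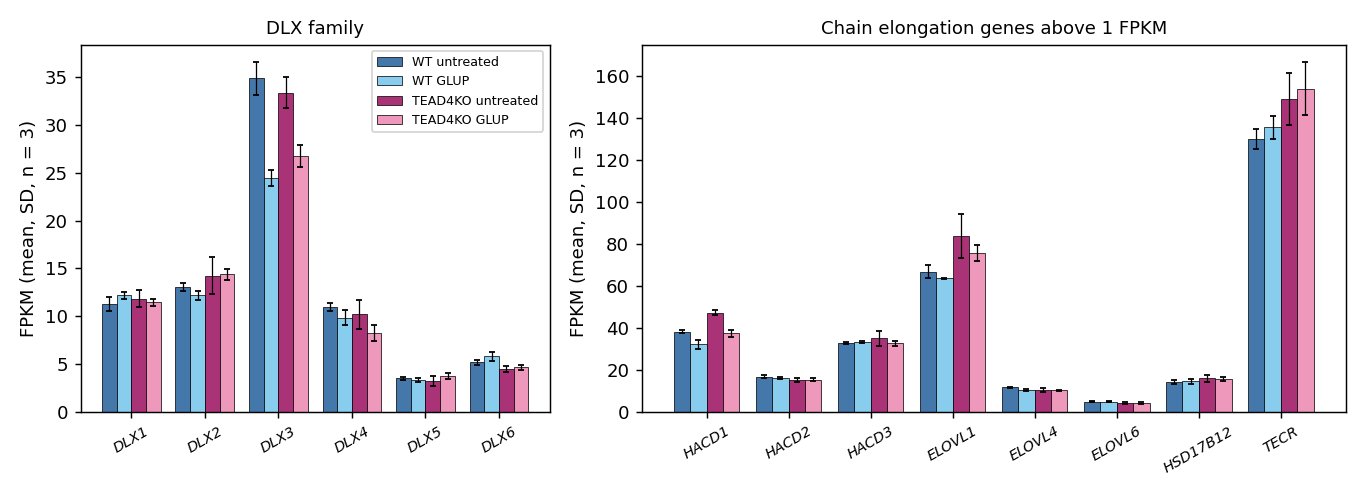
Mean FPKM with SD (n = 3) in the 4 groups for the 6 DLX genes (left) and for 8 genes of very long chain fatty acid elongation above 1 FPKM (right), on axes from 0. DLX3 is the highest of the DLX genes with a mean of 29.9 FPKM over the 12 libraries, and its bars with GLUP are lower than its untreated bars, while TECR, at 142 FPKM, is the highest of the elongation genes.

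Of 19 scavenger receptor genes beside OLR1, 9 were tested and none passed limma for GLUP. SCARA3, a class A scavenger receptor, had GLUP differences of -0.36 in WT and -0.16 in cells labelled TEAD4KO, with limma adjusted p-values of 0.238 and 0.758, and it also lay lower without overlap in both genotypes. It rose in libraries labelled TEAD4KO with GLUP by 0.32 (limma adjusted p = 0.0191). SCARF2 rose between genotypes by 0.47 untreated and by 0.45 with GLUP, with limma adjusted p-values of 0.00686 and 0.00706. The untreated call of SCARF2 was lost with the length and GC correction, at a limma adjusted p of 0.0964, and SCARA3 passed in 9 of 12 fits that left out 1 library. CLEC7A, the nearest lectin-like gene to OLR1, stayed under the level limit at 0.195 to 0.885 FPKM. GABARAPL1, which encodes an autophagy protein and lies 40320 bases away on the other side, had GLUP differences of -0.29 in WT and -0.28 in cells labelled TEAD4KO, with limma adjusted p-values of 0.999 and 0.632, and it too is among the 74 genes that lay lower without overlap in both genotypes.

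NF-kB is a known inducer of OLR1, and 8 of 17 genes of its response were tested. None passed limma in any comparison. All 8 had a GLUP difference above 0 in WT, with a median of 0.13 against 0.01 over all genes, and 6 of 8 did in cells labelled TEAD4KO, with a median of 0.08 against -0.02. The most abundant, the chemokine CCL2 at 124 FPKM, had GLUP differences of 0.20 and 0.05. NFKB2, a subunit, was at 33.9 FPKM and the inhibitor NFKBIA at 22.4 FPKM.

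HACD1 was the most abundant of its family. HACD3 followed at 33.3 FPKM and HACD2 at 15.7 FPKM, and HACD4 stayed under the level limit. HACD2 had GLUP differences of -0.06 and 0.02 and HACD3 of 0.02 and -0.09, and neither passed limma in any comparison. Of the 13 genes of the elongation cycle beside HACD1, 7 were tested and none passed for GLUP. ELOVL1, the elongase that starts the cycle on saturated chains, was at 72.4 FPKM and rose in untreated libraries labelled TEAD4KO by 0.32 (limma adjusted p = 0.0338). The untreated call of ELOVL1 held in 5 of 12 fits that left out 1 library and was lost with the length and GC correction (limma adjusted p = 0.231). With GLUP its genotype difference was 0.25 (limma adjusted p = 0.0771). TECR, the reductase that acts after HACD1, was at 142 FPKM with genotype differences of 0.19 and 0.18. STAM, the next protein-coding gene to HACD1 at 26777 bases, had GLUP differences of -0.09 and -0.05. ST8SIA6 on the other side was at 0.0975 FPKM or less.

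Of 14 genes of ceramide synthesis, which uses very long chain fatty acids, 9 were tested and 0 passed limma in any comparison. CERS2, the ceramide synthase for very long chains, was at 80.3 FPKM with GLUP differences of 0.01 and -0.07, SPTLC1 was at 52.6 FPKM and DEGS1 at 34.6 FPKM. Of 15 striated muscle genes 2 were tested, and TNNT1, a slow muscle troponin, rose in untreated libraries labelled TEAD4KO by 0.40 (limma adjusted p = 0.0400). That call held in 4 of 12 fits that left out 1 library and was lost with the length and GC correction (limma adjusted p = 0.228). PAX7 was at 1.21 FPKM and passed in none of the comparisons.

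**Figure D5:**
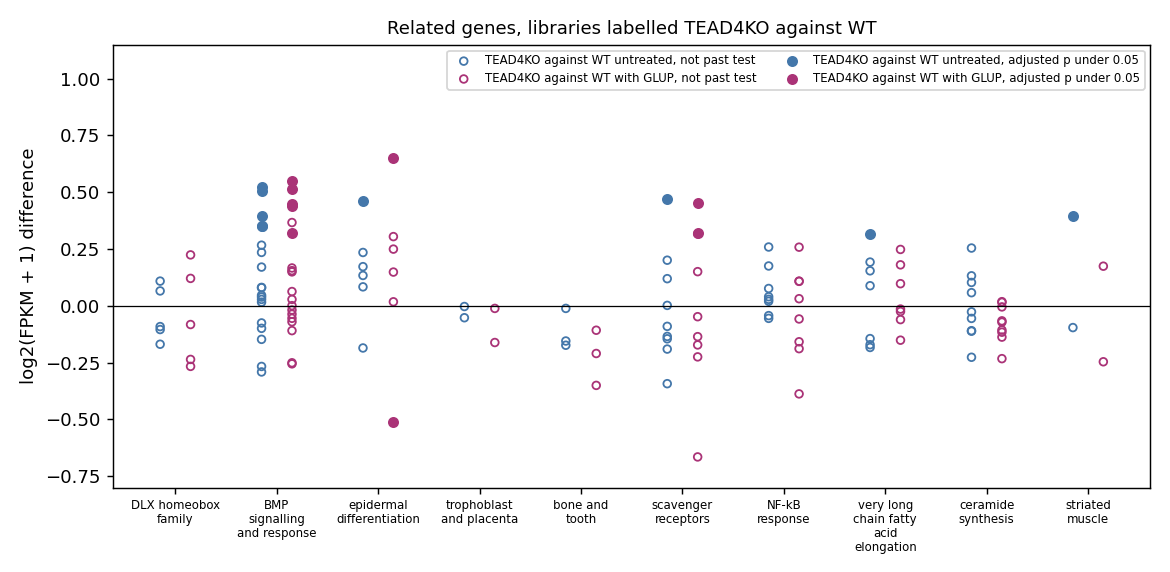
Differences in log2(FPKM + 1) between libraries labelled TEAD4KO and WT for the tested genes of the 10 lists other than the 3 members, untreated (blue) and with GLUP (purple), with filled points for an limma adjusted p under 0.05. Filled points are found mainly among the BMP genes, with 5 in each comparison.

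Over all 10 lists, 70 genes other than the 3 members were tested. For GLUP, 0 passed limma in either genotype. At an unadjusted limma p under 0.05 there were 7 of the 70 in WT and 12 in cells labelled TEAD4KO. These are larger shares than the 3.43% and 6.38% of all genes, and the lists were chosen with earlier results of these data known. At the adjusted threshold 0.00891% of all genes were called in WT and 0.0445% in cells labelled TEAD4KO, so a count of 0 among 70 is near this background. Between genotypes 9 of the 70 passed untreated and 9 with GLUP, beside 5.42% and 5.84% of all genes. With an added limit of a fold change over 2, 0% and 0.00891% of all genes were called for GLUP in WT cells and in those labelled TEAD4KO, and 0.0356% and 0.0535% between genotypes, and none of the 3 members reached that limit in any comparison.

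The 3 genes followed each other over the 12 libraries through their group means. Pearson's r of log2(FPKM + 1) was 0.83 between DLX3 and OLR1, 0.71 between DLX3 and HACD1 and 0.87 between OLR1 and HACD1. These values rest on the 4 groups, and the rule that chose the genes sets them in part. Once each group mean was subtracted, r was -0.04, 0.18 and -0.18, and a shared movement of the 3 genes from library to library is not visible in these values.

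The genes whose level followed DLX3 most closely over the 12 libraries were HS6ST1 (r = 0.939), CDH1 (r = 0.918) and MTDH (r = 0.895). Of these, HS6ST1 lay lower with GLUP without overlap in both genotypes, and CDH1 and MTDH did not. CDH1, which encodes E-cadherin, was low here, at 2.04 to 3.68 FPKM. For OLR1 they were the keratin gene KRT4 (r = 0.973), TRIML2 (r = 0.908) and SCARA3 (r = 0.901), all of which lay lower with GLUP without overlap in both genotypes. For HACD1 they were TRNP1 (r = 0.927), the transglutaminase gene TGM1 (r = 0.925) and ZNF467 (r = 0.916), which also did. Among all tested genes 0.659% held this pattern. Likeness to a gene chosen for the pattern favours it, so its presence here is not a separate result. KRT4 had means of 18.6 and 12.8 FPKM in WT without and with GLUP, and of 21.3 and 16.6 FPKM in cells labelled TEAD4KO. By deviations from the group means other genes came first, namely SEMA3F, C6orf47 and OXLD1 for DLX3 (r = 0.965, 0.960 and 0.926), PIK3CD, PLAUR and AQP1 for OLR1 (r = 0.907, 0.905 and 0.902), and PSMB8, CARD19 and PLP2 for HACD1 (r = 0.960, 0.917 and 0.908). With 12 libraries and 11225 genes, values of this size are a description of these libraries only.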

How the data were processed

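RNA of 12 HGC-27 samples was sequenced, and the authors deposited FPKM values with 1 column per sample and no pooling. The submitters' processing notes name hg19, HISAT2, Cufflinks and RSEM, without versions or roles. FPKM hides depth and retains effects of fragment length and GC content that differ between libraries. Symbols, positions and lengths came from GENCODE on GRCh37 (96.5% of rows matched), and the HACD1 promoter from RefSeq.

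Genes averaging 1 FPKM or more were fitted as log2(FPKM + 1) with limma 3.58.1 in R 4.3.3, using 1 model of 4 groups and eBayes with trend. P-values were two-sided and adjusted by Benjamini-Hochberg, with a call at 0.05. The fit was tested on simulated data. Named were the 3 members, list genes that passed or else the 3 most abundant, and the DLX and HACD families. Adjacent protein-coding genes and the 3 most alike genes by each measure were named too. Some genes that this rule or the lists cover are not reported here. Members and lists were chosen with earlier results of these data known. Replicate numbers come from the titles. Deviations correlated at 0.106, 0.152 and 0.336 for numbers 14, 15 and 16 across genotypes, each above 0.1, although differently numbered GLUP libraries reached 0.134. The main fit did not pair libraries, and a pairing by number entered only the alternatives with a replicate block. Alternatives were other pseudocounts, filters, scalings and variance models, a fit of only the groups compared, a replicate block, a length and GC correction (splines with 5 degrees of freedom), the block together with that correction (added after seeing the data), a fold limit of 2 and leaving out each library.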

Additional observations from a re-analysis of the deposited data

How the results depend on the processing

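Depth is unknown and 3 libraries a group limit the precision. The GLUP differences of DLX3, OLR1 and HACD1 kept their direction in every alternative run. They moved by less than the SD of log2 values in the more variable of the groups compared. For fits that left out 1 library both outcomes were fixed in advance. The direction was fixed because the genes were chosen for groups that do not overlap. The size was fixed because leaving out 1 of 3 libraries moves a group mean by less than the SD of that group. Leaving out a library of the other genotype left the difference as it was. The widest range was -0.62 to -0.43 for OLR1 in WT, and no result reversed in any alternative. DLX3 and OLR1 did not pass between genotypes in any of them. The number of genes lower with GLUP in both genotypes ranged from 63 to 84. OLR1 has no value with a mean of at least 5 FPKM, since its mean is lower.

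HACD1 between genotypes, untreated (0.30), lost its call with the length and GC correction (0.21) and with the replicate block and that correction together (0.21, limma adjusted p = 0.111), and was 0.28 to 0.31 with 1 library left out. With GLUP (0.22) it passed with a mean of at least 5 FPKM (0.22, limma adjusted p = 0.0450), array weights (0.21, 0.0201) and the replicate block (0.22, 0.0418), and was 0.16 to 0.26 with 1 library left out, passing without untreated TEAD4KO replicate 1 (limma adjusted p = 0.0408) or TEAD4KO GLUP replicate 16 (0.0212).

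Counts of all genes called by limma were 1 and 5 for GLUP in WT and in cells labelled TEAD4KO, and 608 and 656 between genotypes untreated and with GLUP. For GLUP in WT the count was 2 with quantile normalisation, 0 without trend, 61 with array weights, 2 with the length and GC correction and 0 with the fold limit. For GLUP in cells labelled TEAD4KO it was 3 without trend, 1 with array weights, 1 with only the compared groups and 1 with the fold limit. Untreated between genotypes it was 394 without a filter, 382 with only the compared groups, 223 with the length and GC correction, 168 with the replicate block added to it and 4 with the fold limit. With GLUP between genotypes it was 2487 with array weights, 1064 with the replicate block, 419 with the length and GC correction and 6 with the fold limit. With 1 library left out the counts ranged from 0 to 1, 1 to 6, 119 to 1186 and 196 to 1952, and the related genes called from 0 to 0, 0 to 0, 2 to 13 and 7 to 17. The cause of these changes was not tested. Untreated numbers 1, 2 and 3 correlated at -0.0569, 0.203 and -0.0149 and share only a number, and the block changed no other call of the 3 genes.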
